A study of Mus musculus with 32 samples.

Results

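The genes described here encode the non-collagen core of the basement membrane: 6 laminin chains (Lama1, Lama2, Lama3, Lama5, Lamb2 and Lamc1), the nidogens Nid1 and Nid2, the perlecan core protein Hspg2, and the matrix glycoprotein Sparc. They were matched by symbol, and all 10 were found once each among the 24028 gene symbols listed for both libraries. The set was chosen from the measured RNA levels of the same libraries, with Lama1 and Nid1 already known to differ. The contrast between the libraries is therefore given as a description, with no test.

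RNA-seq was carried out in mouse embryonic stem cells (mESCs) that were wild type (WT) and in mESCs labelled Eed-/-, with 1 library per genotype. EED is a core subunit of Polycomb repressive complex 2 (PRC2), which methylates lysine 27 of histone H3, and the comparison bears on which genes change in RNA level when Polycomb is lost. Both libraries carry the label TT2 for the strain, while Eed-/- samples of other assays carry a different strain label. Which line the RNA library labelled Eed-/- came from is therefore uncertain. A difference between cell lines cannot be told apart from one between genotypes. All cells were grown with serum and LIF on gelatinized plates, without a mention of feeder cells. The values are FPKM, in which fragments are scaled to transcript length and to the size of the library, a scale on which the levels of different genes can be compared per length.

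In basement membranes, laminins are heterotrimers of an alpha, a beta and a gamma chain that polymerize into a sheet bound to cells through integrins and dystroglycan. Nidogens and perlecan link this sheet to the network of type IV collagen, and SPARC binds collagen and assists its deposition. The laminin with the alpha1, beta1 and gamma1 chains is the first to be deposited in the mouse embryo, and extraembryonic endoderm makes it in large amounts, together with type IV collagen, nidogen and SPARC. Embryonic stem cells also make laminin, and the endoderm that forms around aggregates of them lays down a basement membrane.

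Promoters are shown first, since the study concerns DNA methylation at CG dinucleotides and the members differ widely in how many CG their promoters hold. RefSeq promoter windows were found for 6 of the 10 genes (Lama2, Lama5, Lamb2, Nid1, Hspg2 and Sparc), and not for Lama1, Lama3, Lamc1 and Nid2. The 3 stretches printed here are the 250 bases before the start of Nid1, a gene of higher RNA level in the library labelled Eed-/-, of Lama5, which differed by less than 2-fold, and of Sparc, the member with the highest level. They are written 5′ to 3′ on the gene's strand with CG dinucleotides in capitals. By exact match they lie in mm9 at chr13:13529619-13529868 (plus strand), chr2:179960565-179960814 (minus strand) and chr11:55233583-55233832 (minus strand), each directly before the annotated first base of its gene.
Nid1: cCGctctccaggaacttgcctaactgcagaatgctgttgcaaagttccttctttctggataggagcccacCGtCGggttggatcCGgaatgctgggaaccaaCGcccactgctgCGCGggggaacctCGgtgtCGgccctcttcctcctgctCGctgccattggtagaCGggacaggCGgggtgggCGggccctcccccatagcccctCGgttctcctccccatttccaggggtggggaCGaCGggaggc
Lama5: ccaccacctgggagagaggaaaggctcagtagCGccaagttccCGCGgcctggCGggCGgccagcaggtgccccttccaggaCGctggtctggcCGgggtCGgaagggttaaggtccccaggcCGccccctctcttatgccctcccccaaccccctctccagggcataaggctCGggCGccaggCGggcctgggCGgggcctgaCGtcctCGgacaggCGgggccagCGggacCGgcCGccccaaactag
Sparc: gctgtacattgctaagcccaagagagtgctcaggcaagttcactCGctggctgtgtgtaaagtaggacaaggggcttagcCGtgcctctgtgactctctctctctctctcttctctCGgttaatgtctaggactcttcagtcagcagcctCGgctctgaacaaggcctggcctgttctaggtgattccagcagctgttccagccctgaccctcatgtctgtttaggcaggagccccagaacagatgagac

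The Nid1 and Lama5 stretches hold 16 and 19 CG dinucleotides, and the Sparc stretch holds 4. Over the whole window of 300 bases, Hspg2 had 27 CG, Lama5 24, Nid1 20, Lamb2 4, Sparc 4 and Lama2 1, against a median of 7 over 32851 mouse promoter windows. The G+C content of these windows ran from 44.0% in Lamb2 to 72.7% in Lama5, with a median of 52.7% over all windows. Members with CG-rich promoters and members with CG-poor ones were thus both present, and both kinds were expressed. Motifs were searched on both strands. The GC box GGGCGG was present in 4 of the 6 windows (Lama2, Lama5, Nid1 and Hspg2), and in 35.7% of all windows. The E-box CACCTG was present in Lama5 and Sparc, and in 20.2% of all windows. The TATA box TATAAA, the GATA motif AGATAA and the SOX motif ACAAAG had 0 matches in the 6 windows, and were present in 13.6%, 11.2% and 18.7% of all windows.

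Each library lists 24525 values, and small RNAs dominate the summed FPKM, so the sums are no measure of sequencing depth. This was instead read from low FPKM values, which fall on whole numbers of fragments. About 7180000 fragments for WT and 6400000 for the library labelled Eed-/- were recovered, with 79.0% and 79.4% of low values within 0.1 of a whole number, against 20% by chance. Intervals below are 95% intervals from these fragment numbers. They cover counting error only, and the spread between cultures is unknown. The transcript of Eed itself was not reduced, with an FPKM of 63.0 in WT against 70.9 in the other library, so the second library is named by its label wherever a direction is given. The transcript level does not measure the protein. For its Eed-/- cells, the study reports a check of the loss of Eed through the histone mark set by PRC2, by western blot and ChIP-seq. The mESC identity was read from 9 markers, among which the pluripotency factors Pou5f1 (FPKM of 393 in WT against 373 in the library labelled Eed-/-), Sox2 (196 and 157) and Nanog (114 and 176) were high in both. Of these markers 1, Zfp42, differed by 2-fold (FPKM 131 and 272), and Klf4 came close (25.5 and 44.4), on the scale defined below. On that scale the median change of the 9 markers was 0.35, with 7 of them above 0. With the FPKM as deposited this median was 0.15.

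The 10 genes spanned a wide range of RNA levels. In WT, Sparc was the highest at an FPKM of 71.9 (Poisson interval 67.7 to 76.3). Lamc1 followed at 62.1 (60.0 to 64.2) and Nid2 at 36.7 (34.7 to 38.8). Next came a group of 4 genes in which neighbours had overlapping intervals: Lama5 at 10.7, Hspg2 at 9.84, Nid1 at 8.36 and Lama1 at 8.25. Below them, Lamb2 stood at 4.48 (3.85 to 5.20) and Lama3 at 1.06 (0.843 to 1.33). Lama2 was close to absent, with an FPKM of 0.0145 that stands for 1 fragment.

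In the library labelled Eed-/- the top 3 genes were the same, with Sparc at an FPKM of 67.9, Lamc1 at 61.2 and Nid2 at 36.9. Lama1 had moved up to the fourth place at 33.5 (32.1 to 35.0), where its interval overlapped that of Nid2. The fifth place was held by Nid1 at 21.2 (19.8 to 22.8), above Lama5 and Hspg2, which were both at 12.2. Lamb2, Lama3 and Lama2 kept the last places, at 3.90, 1.30 and 0.0325. The order of the members thus differed between the libraries through Lama1 and Nid1.

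**Figure D1:**
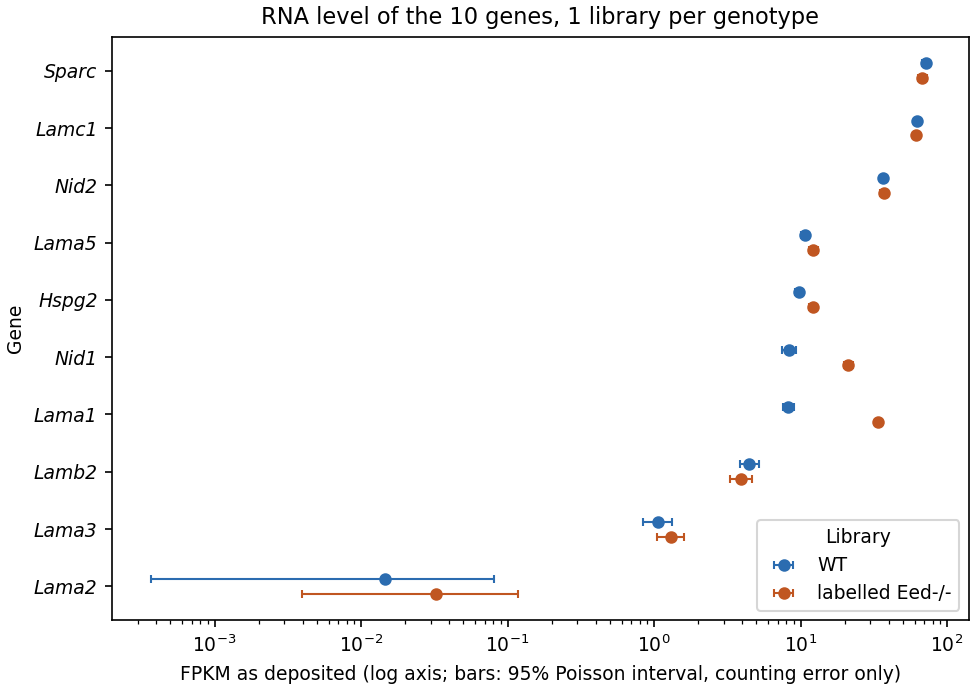
FPKM of the 10 genes as deposited (log axis) in the WT library (blue) and the library labelled Eed-/- (orange), with 95% Poisson intervals for counting error. The points of Lama1 (8.25 and 33.5) and Nid1 (8.36 and 21.2) lie far apart. Those of the other genes lie close together, except for Lama2, which rests on 1 and 2 fragments.

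To compare the libraries, FPKM were quantile-normalized, and a change is a difference in log2(normalized FPKM + 1), a scale that compresses differences between low values. Unless a ratio is given, 2-fold refers to this scale. A gene can pass 2-fold as a ratio without passing it here, the more easily the lower its FPKM. Examples at an FPKM above 1 are Klf4 (normalized ratio 2.02, change 0.99) and the metalloproteinase gene Mmp14 (0.415, change -0.98). Of the 10 genes, 9 had a mean normalized FPKM of at least 0.1, and Lama2 did not. In the library labelled Eed-/-, 2 of these 9 genes, Lama1 and Nid1, were higher by 2-fold or more, and 0 were lower by as much. Over all 14835 genes above this level, 3.80% were at least 2-fold higher and 3.98% at least 2-fold lower, in numbers 564 and 590, against 455 and 801 with the FPKM as deposited. Nothing is read from this difference, since the members were chosen on the same contrast. The median change was 0.21 over the 9 genes and 0.01 over all genes. The other 7 genes differed by less than 2-fold, from -0.06 in Lamb2 to 0.43 in Hspg2.

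Alpha chains carry the cell-binding domain of a laminin, and of the 4 in the set Lama1 had the largest change on the log2(FPKM + 1) scale. In mm9, Lama1 spans 68046605 to 68171985 on the plus strand of chromosome 17, with a single annotated transcript of 9518 bp. Its FPKM of 8.25 in WT against 33.5 in the library labelled Eed-/- stand for 555 and 2010 fragments. The normalized level was 4.59-fold higher (interval 4.18 to 5.05), a change of 2.06. With the FPKM as deposited the ratio was 4.06 (3.70 to 4.47), a smaller value in the same direction. Among the 500 genes nearest to Lama1 in level, 2.20% were at least 2-fold higher. The median change over the 678 genes of chromosome 17 that passed the filter was 0.04.

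Lama5, which encodes the alpha chain of laminins found in most adult basement membranes, lies on chromosome 2 from 179911078 to 179960564. Its FPKM was 10.7 in WT against 12.2 in the library labelled Eed-/-, a normalized ratio of 1.27 (1.16 to 1.40). Lama5 was the more abundant of the 2 alpha chains in WT and Lama1 in the other library. The ratio of Lama1 to Lama5 was 0.769 in WT (interval 0.690 to 0.856) and 2.74 in the library labelled Eed-/- (2.53 to 2.97). This ratio is taken within each library, so scaling one library as a whole does not change it.

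Lama3, the alpha chain of the laminin that anchors epidermis, lies on chromosome 18 from 12492533 to 12741522. Its FPKM was 1.06 in WT against 1.30 in the library labelled Eed-/-, and the interval of its normalized ratio, 0.915 to 1.73, included 1. A difference was not detectable at this depth. Lama2, the alpha chain of muscle and peripheral nerve, lies on chromosome 10 from 26701094 to 27336748 and had 1 fragment in WT against 2 in the other library. The ratio of its deposited FPKM was 2.24 with a counting interval from 0.116 to 132, which gives no direction. Both genes have several annotated transcripts (3 and 4), so their fragment numbers are approximate.

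Lamb2 and Lamc1 did not follow Lama1. Lamb2, the beta chain of the neuromuscular junction and the kidney filter, lies on chromosome 9 from 108382193 to 108392861. Its FPKM was 4.48 in WT against 3.90 in the library labelled Eed-/-, a normalized ratio of 0.951 (0.755 to 1.20). Lamc1 encodes the gamma chain shared by most laminins and lies on chromosome 1 from 155066052 to 155179916. Its FPKM was 62.1 and 61.2, with a normalized ratio of 1.16 (1.10 to 1.21). The direction of Lamc1 depends on the scaling, as the ratio of the deposited values was 0.986 (0.938 to 1.04). The median change over the 752 genes of chromosome 1 was -0.29, and its part in the value of Lamc1 was not tested.

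The laminin chains outside the set were looked up from a list of 4 genes. Lamb1, the beta chain that pairs with the alpha1 and gamma1 chains, had an FPKM of 29.6 in WT against 24.8 in the library labelled Eed-/-. Its normalized ratio was 0.959 (0.879 to 1.05), and its deposited ratio of 0.837 (0.766 to 0.913) lay below 1. Lama4, the alpha chain of blood vessels, had 0.0709 and 0.449, which stand for 3 and 17 fragments, and a ratio of 6.34 as deposited with a counting interval from 1.83 to 33.8. Lamb3 had 0.361 and 0.525, on 10 and 13 fragments. Lamc3, named after its value was seen, was listed at 0 in both libraries. Of these 4 genes, 3 passed the filter on low values, and 0 were at least 2-fold higher or lower on the log2(FPKM + 1) scale, on which the change of Lama4 was 0.44.

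The levels of the chain classes were compared within each library, with Lamc1 standing for the gamma chains. All alpha chains together had an FPKM of 20.1 in WT against 47.5 in the library labelled Eed-/-. The beta chains summed to 34.5 and 29.2, and Lamc1 alone had 62.1 and 61.2. In WT the level of Lamc1 was thus 3.08 times and the sum of the beta chains 1.71 times the sum of the alpha chains, and in the other library these ratios were 1.29 and 0.614. Of these 3 values, that of the alpha chains was the lowest in WT and that of the beta chains in the library labelled Eed-/-. Lama1 made up 41.0% of the alpha chain FPKM in WT against 70.5% in the other library, while Lama5 made up 53.3% and 25.7%. The composition of the beta chains moved little, with Lamb1 at 86.0% and 84.8% of their FPKM. For the chains of the embryonic laminin, the ratio of Lamb1 to Lama1 was 3.59 in WT (3.24 to 3.98) and 0.739 in the library labelled Eed-/- (0.682 to 0.800), and that of Lamc1 to Lama1 was 7.52 (6.87 to 8.24) and 1.82 (1.72 to 1.93). These are ratios of RNA levels and do not measure assembled trimers.

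**Figure D2:**
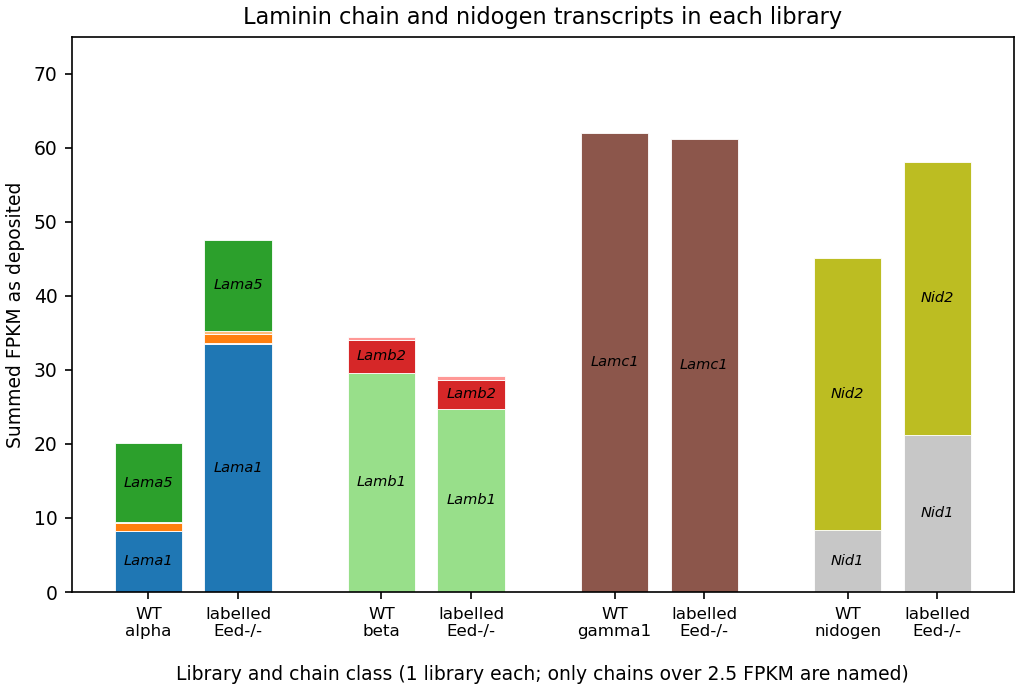
Summed FPKM as deposited of the alpha and beta laminin chains, of Lamc1 (gamma1) and of the nidogens, stacked by gene, in each library. The alpha bar goes from 20.1 in WT to 47.5 in the library labelled Eed-/- through Lama1. The beta bar goes from 34.5 to 29.2, the Lamc1 bar differs little, and the share of Nid1 in the nidogen bar goes from 18.5% to 36.6%.

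The nidogens, which bridge laminin and type IV collagen, differed from each other. Nid1 spans 13529869 to 13604542 on the plus strand of chromosome 13, with a single annotated transcript of 6046 bp. Its FPKM of 8.36 in WT against 21.2 in the library labelled Eed-/- stand for 353 and 801 fragments. The normalized level was 2.87-fold higher (2.53 to 3.26), a change of 1.41, and the deposited values gave 2.54 (2.24 to 2.89). Among the 500 genes nearest to Nid1 in level, 3.40% were at least 2-fold higher. The median change over the 507 genes of chromosome 13 that passed the filter was 0.12, and its part in the value of Nid1 was not tested. Nid2 spans 20570479 to 20631009 on chromosome 14, and its FPKM was 36.7 in WT against 36.9 in the other library. Its normalized ratio was 1.15 (1.06 to 1.24), and the interval of the deposited ratio, 0.925 to 1.09, included 1. Nid2 was the more abundant nidogen in both libraries, 4.40 times Nid1 in WT (3.90 to 4.96) and 1.74 times in the library labelled Eed-/- (1.58 to 1.90).

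Hspg2, whose product perlecan is the main heparan sulfate proteoglycan of basement membranes, lies on chromosome 4 from 137024634 to 137126545. Its FPKM was 9.84 in WT against 12.2 in the library labelled Eed-/-. The normalized ratio was 1.38 (1.27 to 1.51) and the deposited one 1.24 (1.14 to 1.35), so Hspg2 was higher beyond counting error under both, and by less than 2-fold. Sparc spans 55208002 to 55233582 on chromosome 11, and its FPKM was 71.9 in WT against 67.9 in the other library. Its normalized ratio was 1.11 (1.01 to 1.21) and its deposited ratio 0.945 (0.865 to 1.03), so the direction depends on the scaling.

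Counting intervals were then compared over the 9 genes under 3 scalings. Above a ratio of 1 lay the intervals of 7 genes with quantile normalization, of 6 with median-ratio scaling and of 4 with the FPKM as deposited. Lama1, Lama5, Nid1 and Hspg2 were above 1 under all 3, and the interval of no member lay below 1 under any (0 genes). The share of all genes with such intervals was not computed, here or for the marker lists below. Nothing is therefore read from these counts about the members as a set. The median change over all genes was 0.01 with quantile normalization, 0.02 with median-ratio scaling and -0.09 as deposited. The changes of the most abundant members on these scalings were 0.21, 0.14 and -0.02 for Lamc1, 0.19, 0.16 and 0.01 for Nid2, and 0.14, 0.08 and -0.08 for Sparc.

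**Figure D3:**
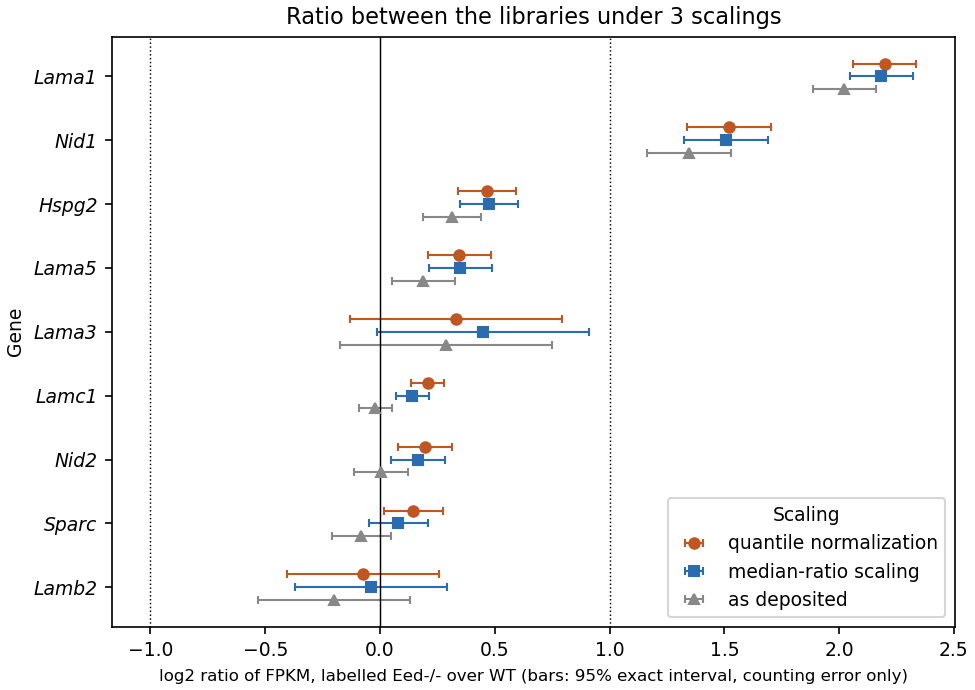
Log2 ratio of FPKM (library labelled Eed-/- over WT) of the 9 genes that passed the filter on low values, under quantile normalization, median-ratio scaling and as deposited, with 95% exact intervals for counting error. Lama1 and Nid1 lie to the right of the 2-fold line under each scaling, and the intervals of Lamb2 and Lama3 cross 0 under each.

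DNA methylation valleys (DMVs) are the large hypomethylated regions that the study describes. Lama1, Lama5, Lamc1, Nid2 and Hspg2 are on the list of genes that the study places at DMVs in mESCs, and Lama2, Lama3, Lamb2, Nid1 and Sparc are not. In these libraries the changes of the 5 listed genes ran from 0.19 (Nid2) to 2.06 (Lama1), and those of the 4 other genes that passed the filter from -0.06 (Lamb2) to 1.41 (Nid1). Each group held 1 of the genes that were at least 2-fold higher. Over all 1586 listed genes that passed the filter the median change was 0.01, and 67 were at least 2-fold higher. Among all 14835 genes that passed, listed or not, 564 (3.80%) were at least 2-fold higher.

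The partners of these proteins were taken from textbook lists. Type IV collagen forms the network that nidogen and perlecan join to laminin. Of its 6 chain genes, 2 passed the filter, and both were higher by 2-fold or more in the library labelled Eed-/-. The annotated spans of these 2 genes overlap at their ends, on opposite strands, so they do not count as separate loci. Col4a1 had an FPKM of 5.62 in WT against 19.1 in the other library (normalized ratio 3.83, interval 3.33 to 4.43), and Col4a2 had 2.68 and 6.97 (2.85, 2.29 to 3.55). Both lie on chromosome 8, where the median change over 702 genes was -0.38, and its part in their values was not tested.

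Of 16 other basement membrane genes, 13 passed the filter, with a median change of 0.08, which was -0.02 with the FPKM as deposited. In this list 0 genes were at least 2-fold higher, although Fbln2, encoding a fibulin that binds laminin and nidogen, came close (FPKM 1.33 and 3.39, change 0.97), and it passed 2-fold with median-ratio scaling. Frem2, a protein of the Fraser complex, was the 1 gene at least 2-fold lower, with FPKM values of 9.97 in WT against 0.433 in the library labelled Eed-/- (change -2.87). Col18a1, encoding a heparan sulfate collagen, had 69.1 and 34.4 (change -0.78), and Fn1, encoding fibronectin, 55.9 and 33.5 (change -0.52), with Fn1 on chromosome 1. Abundant matrix genes of this list thus had lower values while Lama1, Nid1, Col4a1 and Col4a2 had higher ones.

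Laminin receptors did not share the direction of Lama1. Of 11 genes, 10 passed the filter, 0 were at least 2-fold higher and 2 were at least 2-fold lower, with a median change of -0.20. The lower genes were Bcam, encoding the Lutheran glycoprotein that binds the alpha5 chain (FPKM of 26.3 in WT against 9.04 in the library labelled Eed-/-, change -1.30), and Sdc4, encoding syndecan 4 (58.6 and 20.9, change -1.25). Itgb1, the beta subunit shared by most laminin-binding integrins, had 49.2 and 37.0 (change -0.20) and lies on chromosome 8. Among 8 linker and signalling genes at these receptors, all passed the filter and 0 differed by 2-fold, with a median of 0.00 (-0.14 as deposited). Utrn, encoding utrophin, had the largest change of them, -0.78.

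Genes for processing and turnover of the matrix gave 1 further gene with a 2-fold change. Of 10 genes for collagen and matrix processing, 9 passed the filter and 0 differed by 2-fold. Their changes included 0.78 for P4hb, a subunit of prolyl 4-hydroxylase, and -0.91 for the collagen chaperone gene Serpinh1, which passed 2-fold lower as deposited. Of 8 protease and inhibitor genes, all passed, and Timp1, an inhibitor of metalloproteinases, was higher, with an FPKM of 7.57 in WT against 29.2 in the library labelled Eed-/- (change 1.99). Timp1 lies on chromosome X, where the median change over 518 genes was 0.46. Mmp14, a membrane metalloproteinase, had 5.55 and 2.12 (change -0.98), and it passed 2-fold lower as deposited.

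**Figure D4:**
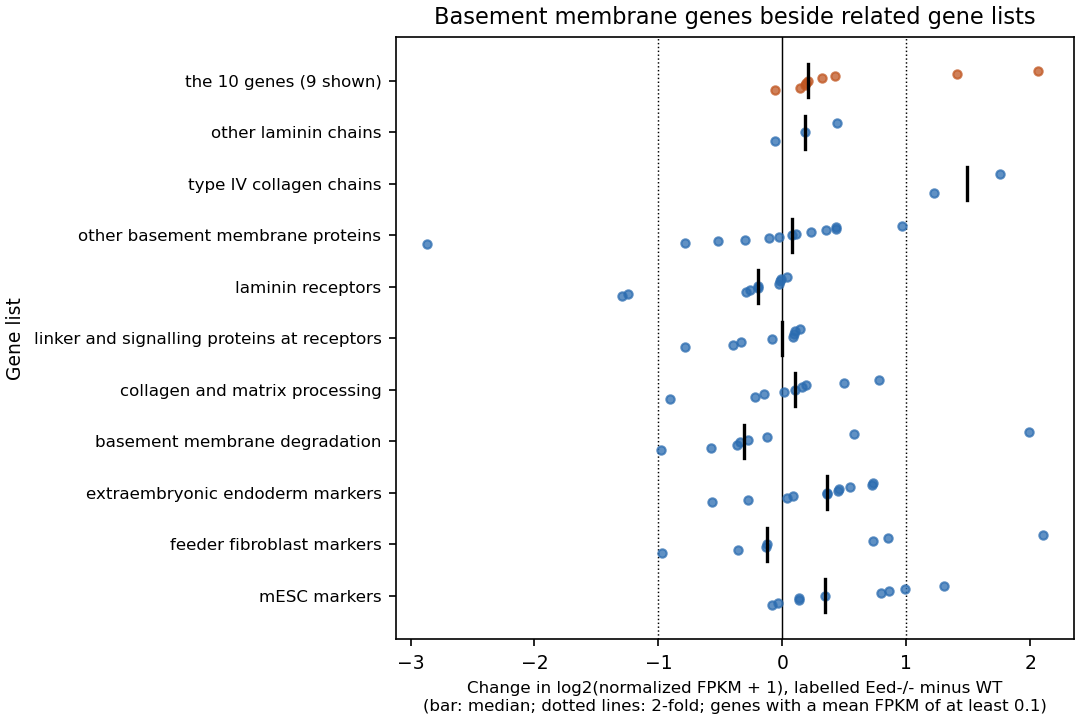
Change in log2(normalized FPKM + 1) of single genes (points) in each list, library labelled Eed-/- minus WT, with the median of each list (bar) and lines at 2-fold, drawn for genes that passed the filter of 0.1 on mean FPKM. Lama1 and Nid1 stand apart in the top row, as do both detected type IV collagen genes in the third, while the laminin receptors lie mostly below 0.

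Because extraembryonic endoderm and fibroblasts both make basement membrane proteins, markers of these cells were measured beside the members. Bulk RNA cannot separate a few cells with a high level from a small change in every cell. Of 16 extraembryonic endoderm markers, 11 passed the filter and the median change was 0.36. Their levels were low, and 0 differed by 2-fold on the log2(FPKM + 1) scale, but as ratios of the deposited FPKM 5 had counting intervals above 1 (Gata4, Sox7, Pdgfra, Cubn and Thbd, with ratios from 2.73 to 4.48) and 1 below (Hnf4a). Their summed FPKM was 3.84 in WT against 6.76 in the library labelled Eed-/-. The regulators Gata4 (0.431 and 1.35), Sox7 (0.314 and 1.15) and Sox17 (listed at 0 in WT against 0.449 in the other library) were higher in the library labelled Eed-/- at low levels, while Hnf4a was lower (0.530 and 0.0371). Afp, Ttr and Apoa1, secreted products of visceral endoderm that were named after their values were seen, were listed at 0 in both libraries.

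Of 14 fibroblast markers, 7 passed the filter, with a median change of -0.13 and a summed FPKM of 5.51 in WT against 12.3 in the library labelled Eed-/-. The difference between these sums came mostly from Thy1, a surface glycoprotein also found on other cells (0.976 and 6.97, change 2.10). Besides Thy1, the ratios of Fbn1, encoding fibrillin 1 (0.442 and 1.37), and of the transcription factor gene Twist1 (1.24 and 2.88) had counting intervals above 1. Those of the collagen gene Col1a1 (0.460 and 0.137) and of the smooth muscle actin gene Acta2 (1.10 and 0.0648) lay below 1, and Dcn and Twist2, named after their values were seen, were listed at 0 in both libraries. The part of either cell type in the values of Lama1 and Nid1 was not tested.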

How the data were processed

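RNA-seq libraries of WT mESCs and of mESCs labelled Eed-/- (1 each) were used. Samples of the other assays were not analysed here. RNA was depleted of ribosomal RNA, and the authors used TopHat to map strand-specific reads to mm9 and Cufflinks for quantification. The submitters' processing notes name TopHat2 2.0.11 and Cufflinks 2.2.1, and the paper's methods name another TopHat version. The values they deposited are FPKM, listed by gene symbol, with no counts and no stated scaling between libraries. The annotation is not given in the sources used here.

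Values of repeated symbols (268) were summed and the libraries were quantile-normalized, as the study did. Changes were differences in log2(FPKM + 1) for genes whose normalized FPKM averaged 0.1 or more, with 2-fold as threshold. As alternatives, median-ratio scaling, the FPKM as deposited, pseudocounts of 0.1 and 0.01, other filters, repeated symbols left out, and thresholds of 1.5-fold and 3-fold were tried. With 1 library per genotype no test was made.

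Depth was recovered from 5053 single-transcript genes of 1000 bp or more (GENCODE vM1, NCBIM37, the assembly also called mm9), with 165 bp (WT) and 160 bp taken off each length. Fragment numbers used the longest annotated transcript and are approximate for the 6 members with several transcripts. Single levels carry Poisson intervals and ratios exact Clopper-Pearson intervals, both at 95%. Annotated genes overlapping Lama2, Lama3, Lamc1 and Nid2 lie on the opposite strand, and whether counting used strand is not stated. Promoters came from a RefSeq table of GRCm38.p6, and only the printed stretches were matched to mm9, each exactly. Some results are not reported here. Members and gene lists were chosen with earlier results of these data known. All members were named, with genes of other lists by size of change. Computations were tested on simulated data. Scripts used scipy 1.17.1, pandas 2.3.3, numpy 2.4.6 and matplotlib 3.10.9 under Python 3.11.15.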

Additional observations from a re-analysis of the deposited data

How the results depend on the processing

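Lama1 and Nid1 were the members at least 2-fold higher under each scaling, pseudocount and filter. With a 3-fold threshold 1 member was, Lama1. Across 7 alternatives the change of Lama1 ran from 1.90 to 2.20 and that of Nid1 from 1.25 to 1.52. Of 63 values of the 9 members that passed the filter, 2 had another sign than reported, those of Lamc1 (-0.02) and Sparc (-0.08) with the FPKM as deposited. Over all genes, the numbers at least 2-fold higher and lower were 564 and 590, against 455 and 801 with the FPKM as deposited, 1694 and 1778 with a pseudocount of 0.1, 1914 and 1989 with 0.01, 1819 and 1841 at 1.5-fold, and 152 and 137 at 3-fold. A smaller pseudocount or threshold lets more genes pass by construction, and for the FPKM as deposited the cause was not tested. No paired analysis was possible because each genotype has 1 library, and no library could be left out. Depth limits Lama2, at 1 and 2 fragments, and Lama3, at 78 and 85.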
